A study of Mus musculus with 30 samples.

Results

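Luminal cells of the mouse mammary gland were compared between parous and virgin control mice, across all genes measured. The comparison used 8 of the 30 libraries of the series, 5 from parous and 3 from virgin females, and each library came from 1 mouse. All 8 mice carried the control model K8imTmG (K8rta:TETO CRE:mTmG in the labels), in which the keratin 8 promoter drives a doxycycline-dependent transactivator, the transactivator switches on Cre, and Cre turns a Rosa26 reporter from membrane Tomato to membrane GFP. The Rank gene was intact in these mice, and both groups drank doxycycline at 1 mg/ml, between weeks 3 and 8 of age per the labels. Parous mice had lactated until their pups were taken away on lactation day 10, and their glands had regressed for 30 days before collection. Virgin mice had not been mated. Luminal cells were sorted as GFP-positive cells with low CD49f and high CD24 after blood and endothelial cells had been gated out, so only keratin 8-positive cells that had recombined were sampled. The mice were of mixed genetic background, and the labels do not give the stage of the estrous cycle at collection. RNA was read at the 3′ end of transcripts with molecular identifiers (QuantSeq), and values are the authors' normalized read counts.

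The luminal layer of the gland holds hormone-sensing cells, which carry the receptors for estrogen, progesterone and prolactin, and progenitor cells, which respond to paracrine signals from the first kind and give rise to the alveoli that make milk. During pregnancy prolactin acts through Stat5 to switch on milk protein genes, and after weaning most alveolar cells die and the ductal tree returns to a resting state that is not the same as that before pregnancy. Rank, encoded by Tnfrsf11a, and its ligand Rankl, encoded by Tnfsf11, carry the signal of progesterone from hormone-sensing cells to progenitors. In sorted bulk RNA, fewer cells of a kind and less RNA of a gene in each cell cannot be told apart.

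Promoter sequences are shown here for 3 genes that differed in the comparison and held a motif searched for. They are the caseins Csn1s1 and Csn2, which were higher in parous cells, and the kinase gene Sgk1, which was lower. Each stretch was taken from RefSeq promoters of the assembly GRCm38.p6, whereas the deposited values refer to GRCm39. Capitals mark the match to TTCNNNGAA, the core bound by Stat5, in the caseins and to the palindromic element of the glucocorticoid and progesterone receptors in Sgk1, and both motifs were searched on either strand.
Csn1s1 (chr5:87666100-87666124, plus strand, first capital at position -100 from the gene start): tgtaacaaTTCTTAGAAtttatgta
Csn2 (chr5:87699502-87699526, minus strand, first capital at position -93): acgtagacTTCTTGGAAttgaaggg
Sgk1 (chr10:21993694-21993722, plus strand, first capital at position -188 from an internal start): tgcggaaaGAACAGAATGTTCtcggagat
The table gives 6 starts for Sgk1, and the stretch shown lies before one of the internal ones. The window of its outermost start holds a TTCNNNGAA match, at position -223. A gene was counted where the window of any of its starts held the motif. Over all genes tested that had a promoter in the table, 659 of 8080 (8.16%) held TTCNNNGAA, against 9 of 80 (11.2%) of those called higher in parous cells and 7 of 87 (8.05%) of those called lower. The receptor element stood in 23 of 8080 (0.285%) of the tested, in 0 of 80 of those called higher and in 1 of 87 (1.15%) of those called lower, which was Sgk1. Another motif, the sterol regulatory element TCACNCCAC, stood in 105 of 8080 (1.3%), in 2 of 80 (2.5%) and in 0 of 87. Over all 32851 promoters of the table the shares were 8.3%, 0.475% and 1.24%. These matches describe the letters in the window and were not tested.

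Depth ran from 534445 reads in the parous library of mouse 557 and 943438 in that of mouse 494 to 1862812 to 2988541 in the other 6. The libraries of mice 494 and 557 stood apart in further ways. Clec2d, which encodes a lectin-like ligand, was at 90.7 and 124.6 normalized counts in them and at 0.641 to 4.80 in the others, and the 10 highest genes held 8.37% and 11.3% of their counts against 4.16 to 4.96%. Summed counts of 82 ribosomal protein genes were 298190 and 425023 in them and 126493 to 151934 in the others. Sums of 77 oxidative phosphorylation genes were 36761 and 36297 against 16223 to 21839. Both libraries are parous, so results are given with all 5 parous libraries, and, for the main counts and many of the genes whose call or size depends on this pair, also with the 3 of mice 532, 534 and 558. Of 7 luminal markers all were measured in every library (Krt8, Krt18, Krt19, Epcam, Cdh1, Cd24a and Cldn4). The 12 basal markers summed to 79.9 to 142 in the 8 luminal libraries, against 13107 to 17454 in the sorted basal libraries of the same model. Of 15 immune markers 2 were listed, Cd68 and Lyz2, and their sums stayed between 3.20 and 23.8.

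With all 8 libraries, 226 of 10279 genes tested differed between parous and virgin luminal cells (2.2%), 109 higher in parous cells (1.06%) and 117 lower (1.14%), in limma at a Benjamini-Hochberg adjusted p below 0.05. Of the 109, 8 belonged to a list of milk genes, and 101 of those higher and all 117 of those lower did not. The median log2 difference of called genes was 1.77 for those higher and -1.60 for those lower, while that of all genes tested was -0.01. Without mice 494 and 557, 1285 of 10014 genes were called (12.8%), 604 higher (6.03%) and 681 lower (6.8%). All 109 and all 117 genes were among these, where they made up 18.0% and 17.2% of the longer lists. Ranges of the groups did not overlap for 728 genes in which all 5 parous libraries were higher (7.08%) and for 1014 in which all 5 were lower (9.86%), and the called genes were all among them. The number of calls rested on single libraries. It was 732 without mouse 494, 3 without mouse 532, 99 without mouse 534, 50 without mouse 557, 42 without mouse 558, 11 without virgin mouse 531, 3 without 533 and 4 without 538. Csn1s1, Csn1s2a and Csn2 were called in all 8 of these fits, and no gene outside the milk list in more than 5. No called gene named below changed direction in any of them.

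**Figure D1:**
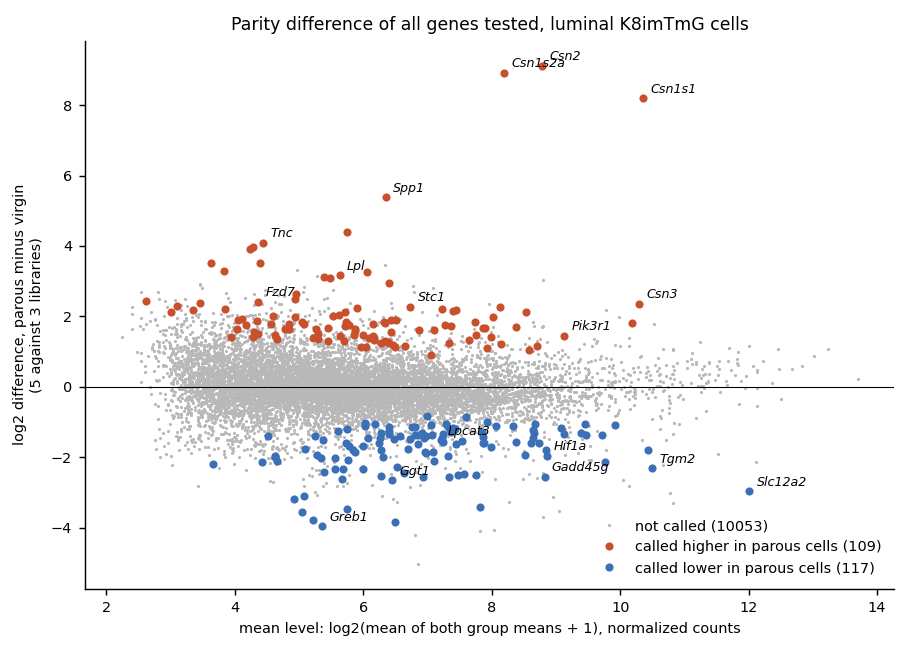
Each point is a gene, plotted by its mean level on the x axis, log2(mean of both group means + 1) in normalized counts, and by its log2 difference between parous and virgin luminal cells on the y axis, with 109 genes called higher in red and 117 called lower in blue. The caseins Csn1s1, Csn1s2a and Csn2 lie above 8 on the y axis, and the called genes of lower level in parous cells include Slc12a2, the ion cotransporter with the highest mean level among them.

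The largest differences were those of caseins. Of 15 milk genes tested 8 rose and none fell, with a median log2 difference of 1.82, against 1.06% of all genes called higher. Without mice 494 and 557, 10 rose, with a median of 2.18, against 6.03% of all genes called higher. Csn1s1, an alpha casein, was at 6.41, 9.96 and 7.36 normalized counts in virgin mice 531, 533 and 538, and at 1964, 2664, 3662, 2515 and 2265 in parous mice 494, 532, 534, 557 and 558. Further values by mouse follow this order. Csn1s2a had no read in any virgin library and 190, 694, 1226, 422 and 388 in the parous ones, at least 307-fold higher when the virgin libraries are set to 3 reads each. Beta casein, Csn2 (ENSMUSG00000063157.10, GRCm39 chr5:87840483-87847489, minus strand), was at 0.641, 0 and 0 against 138, 889, 1955, 741 and 672, at least 462-fold higher by the same floor. Every parous library lay above every virgin library in these 3 genes, by a wide margin. Kappa casein, Csn3, was already at 671, 248.5 and 373 in virgin cells and rose 4.81-fold. Trf, the iron carrier transferrin, rose 3.45-fold (log2 difference 1.82, SE 0.35, adjusted p = 0.0371, and 1.996 as a log2 difference without mice 494 and 557), and the lipase gene Cel 11.2-fold (3.09, SE 0.50, adjusted p = 0.0270, and 3.58). Wfdc12, a secreted protease inhibitor, was at 0.641, 1.57 and 0 against 3.36, 46.8, 44.1, 67.1 and 12.5, so that library 494 held 2 reads of it. The groups overlapped in Lalba, the milk sugar synthase subunit, which was at 18.6, 4.72 and 2.21 against 6.72, 23.2, 82.1, 6.39 and 35.5 (adjusted p = 0.314, and 0.0485 without mice 494 and 557). Btn1a1, which coats milk fat, had 261, 60.8 and 83.2 against 235, 265, 495, 409 and 493 (adjusted p = 0.0800, and 0.0510).

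Among genes outside the milk list, those with the lowest p that rose encode a chemokine-binding receptor, adhesion and hormone molecules and regulators of transcription and signalling. Ccrl2 (ENSMUSG00000043953.14, GRCm39 chr9:110883554-110886591, minus strand), which binds the chemoattractant chemerin, was at 13.5, 11.5 and 8.83 in virgin mice and at 53.8, 35.2, 50.3, 38.3 and 62.7 in parous mice. That is a mean of 11.3 ± 2.32 (SD, n = 3) against 48.1 ± 11.3 (SD, n = 5), or 4.26-fold (log2 difference 1.99, SE 0.28, adjusted p = 0.0227). The lowest parous value was well above the highest virgin value. Ntng1, a membrane-anchored netrin, was at 73.7, 81.8 and 64.0 against 228, 220, 206, 396 and 220, a 3.47-fold rise in which only mouse 557 departed from the other parous mice. Stc1 (chr14:69266575-69279253, plus strand), a secreted glycoprotein hormone, was at 53.8, 43.0 and 17.7 against 215, 169, 193, 147 and 141, a 4.53-fold rise. Pik3r1 (chr13:101817071-101904725, minus strand), the regulatory subunit of PI3 kinase, had 247, 343 and 302 against 865, 679, 759, 1048 and 753 and rose 2.76-fold. The groups were apart in these 3 genes as well, which was a condition for choosing the genes of this group.

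Cited2, a coactivator-binding protein that restrains the hypoxia factor Hif1a, was at 27.6, 37.7 and 39.0 against 210, 96.0, 131, 102 and 143, a 3.92-fold rise. Fzd7 (chr1:59521269-59534685, plus strand), a Wnt receptor, was at 4.49, 8.91 and 3.68 against 26.9, 35.2, 27.4, 47.9 and 30.7, a 5.90-fold rise. Cdc42ep3, a Cdc42 effector that binds septins, stayed within 27.6 to 30.4 in virgin and 60.4 to 97.4 in parous cells. Rnaseh2b, a subunit of the nuclease that removes ribonucleotides from DNA, had 12.2, 15.7 and 11.04 against 38.6, 44.8, 42.8, 47.9 and 36.8. In all 4 genes the groups were apart, as their choice required, and mouse 494 was the highest in Cited2 and mouse 557 in Fzd7. The remaining pair of this group are the uncharacterised transcripts Gm13889, at 39.1, 7.86 and 16.2 against 200, 105, 105, 176 and 143, and C530043A13Rik, at 11.5, 4.19 and 10.3 against 63.8, 39.6, 66.6, 38.3 and 46.3. Gm13889 shares its strand and 3′ end region with Alkbh3, so reads of these genes may have been split between them. All 10 genes had an adjusted p of 0.0227 in limma, and all kept an adjusted p below the threshold without mice 494 and 557, from 0.0105 to 0.0182.

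The genes with the lowest p that fell encode lipid and glutathione enzymes, hypoxia and circadian factors and a nuclear receptor partner. Lpcat3 (ENSMUSG00000004270.15, GRCm39 chr6:124639765-124684440, plus strand), which loads arachidonate onto phospholipids, was at 197, 218 and 240 in virgin mice and at 79.0, 76.0, 68.8, 70.3 and 83.5 in parous mice. Its mean fell from 218 ± 21.6 (SD, n = 3) to 75.5 ± 6.08 (SD, n = 5), a log2 difference of -1.52 (SE 0.18, adjusted p = 0.0202), and its 3′ end overlaps Emg1 on the other strand in a library that keeps strand. Ggt1 (chr10:75387268-75422248, plus strand), which cleaves extracellular glutathione, was at 111, 115 and 225 against 26.9, 20.4, 13.2, 32.0 and 21.2. It was 6.62-fold lower in parous cells (log2 difference -2.65, SE 0.34, adjusted p = 0.0227). The parous mice lay close to each other in both genes, while virgin mouse 538 was well above the other virgin mice in Ggt1.

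Hif1a (chr12:73948149-73996321, plus strand), the oxygen-regulated transcription factor, was at 1039, 538 and 638 against 183, 180, 161, 147 and 256, or 3.98-fold lower. Nfil3, a repressor tied to the circadian clock, was at 75.0, 77.6 and 105 against 11.8, 20.8, 22.1, 19.2 and 26.8. Rcan1, an inhibitor of calcineurin, was at 261, 115 and 127 against 25.2, 32.0, 30.4, 16.0 and 42.0. Each of these genes was below the lowest virgin value in all 5 parous mice, as their choice required. The highest virgin value of Hif1a and Rcan1 was in mouse 531. Nrip1, a corepressor of the estrogen receptor and other nuclear receptors, fell from 573 ± 34.1 to 231 ± 27.9, Etv1, an Ets family factor, from 68.4 ± 4.84 to 13.03 ± 5.28, and Lypd3, a urokinase receptor relative listed with the progenitor genes, from 119 ± 25.3 to 33.8 ± 8.31 (SD, n = 3 and 5). Ctr9, a subunit of the Paf1 elongation complex, was at 1011, 1008 and 2289 against 326, 286, 223, 272 and 431. Gdpd1, a lysophospholipase D, fell 2.73-fold. Adjusted p was 0.0227 for all of these but Lpcat3, and 0.0105 to 0.0163 for the 10 genes without mice 494 and 557.

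**Figure D2:**
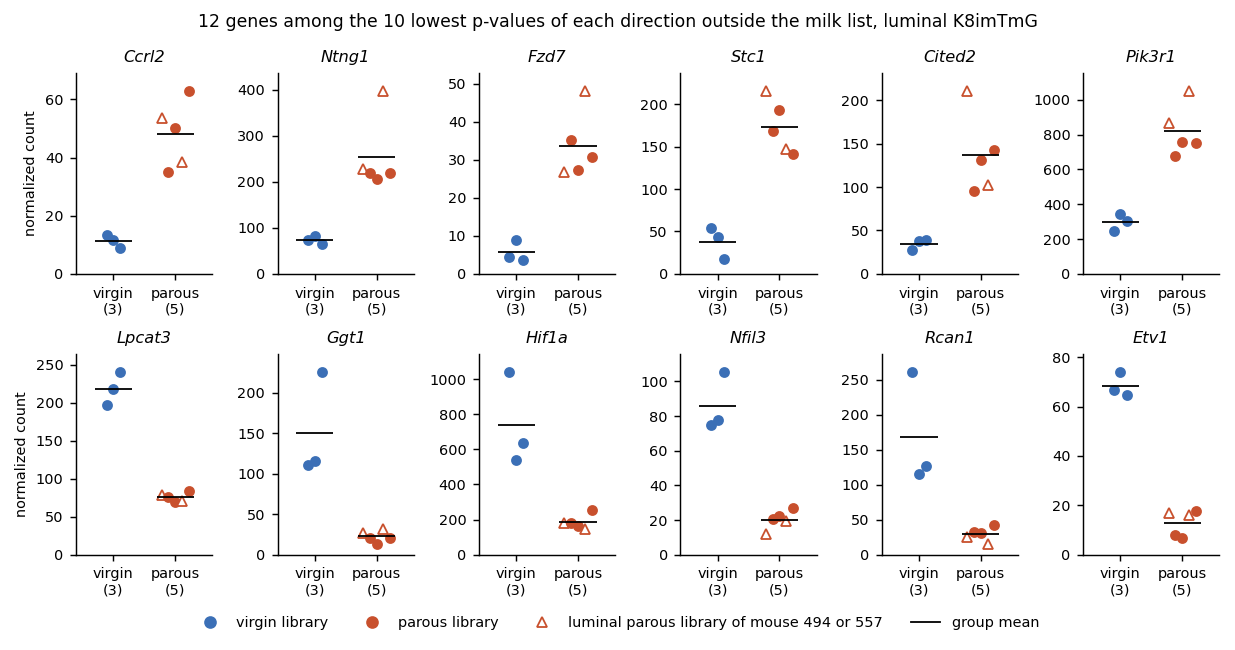
Normalized counts of 12 genes in each of the 3 virgin and 5 parous luminal libraries, with a line at the group mean and open triangles for the parous mice 494 and 557. These genes were chosen among those whose groups did not overlap. In every panel all parous libraries therefore lie on 1 side of all virgin libraries, such as Ccrl2 at 35.2 to 62.7 against 8.83 to 13.5 and Ggt1 at 13.2 to 32.0 against 111 to 225.

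In lipid metabolism single enzymes moved in opposite directions while the median of the list barely shifted. Of 37 fatty acid and triglyceride genes 2 rose and 3 fell, 13.5% called against 2.2% of all genes, and their median log2 difference was -0.14. Without mice 494 and 557, 6 rose and 5 fell, 30.6% called against 12.8% of all genes, and the median was -0.0026. Lpl, which releases fatty acids from circulating lipoproteins, was at 13.5, 5.24 and 5.89 in virgin mice and at 26.9, 79.6, 173, 76.7 and 88.7 in parous mice, a 10.9-fold rise (log2 difference 3.18, SE 0.53, adjusted p = 0.0278). Fads2, which desaturates essential fatty acids, was at 128, 132 and 43.4 against 334, 410, 435, 738 and 381 and rose 4.56-fold. Mouse 494 was lowest of the parous mice in both. Lpin2, which makes diacylglycerol, fell from 217 ± 28.8 to 56.5 ± 34.5, and Gpam, the first enzyme of glycerolipid synthesis, from 129 ± 30.5 to 47.0 ± 12.7 (SD, n = 3 and 5). Lpcat3, given above, also fell. Fasn, the fatty acid synthase, was at 122, 137 and 129 against 43.7, 242, 301, 70.3 and 154, with the virgin mice inside the range of the parous mice (log2 difference -0.01, adjusted p = 0.994). Its difference was -0.01 with all parous mice and 0.79 without mice 494 and 557, the lowest of them (adjusted p = 0.0784). None of 25 cholesterol genes passed in limma, with 0 higher and 3 lower at an unadjusted p below 0.05, 0 called by edgeR and 3 by DESeq2, and their median was 0.05. Over all 10279 genes tested these counts were 1029 higher, 1201 lower, 277 by edgeR and 1060 by DESeq2. With mice 494 and 557 left out, 2 of the 25 cholesterol genes rose and 1 fell, against 6.03% and 6.8% of all genes, and the median was 0.17. Hmgcs1, an early enzyme of sterol synthesis, had a log2 difference of 0.62 (adjusted p = 0.243).

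Genes of the hormone-sensing lineage were lower in parous cells in 17 of 18 members by their log2 difference, but 1 passed the test with all libraries. That was 5.56% called against 2.2% of all genes, and 49.6% of all genes tested had a positive log2 difference. The list median was -1.77 against -0.01 over all genes. Without mice 494 and 557, 10 of 18 fell and none rose, and the median was -2.25, against 6.8% of all genes called lower. Greb1, an estrogen-induced cofactor of the estrogen receptor, was at 101, 95.9 and 28.7 in virgin mice and at 6.72, 1.20, 0.441, 12.8 and 3.46 in parous mice, 15.3-fold lower (log2 difference -3.94, SE 0.75, adjusted p = 0.0367) and 44.3-fold lower without mice 494 and 557. Pgr, the progesterone receptor, had 936, 617 and 588 against 257, 74.4, 25.6, 294 and 231. All parous values of Pgr were below all virgin values, yet its log2 difference of -2.44 had an adjusted p of 0.0995, and -3.17 with 0.0249 without mice 494 and 557. Esr1, the estrogen receptor, was at 283, 326 and 146 against 173, 62.0, 26.0, 99.1 and 77.0 (adjusted p = 0.112, and 0.0221 without these mice). In Esr1 mouse 494 lay within the virgin range. Prlr, the prolactin receptor, had 7604, 5943 and 6867 against 4067, 835, 464, 2384 and 2331 (log2 difference -2.13, adjusted p = 0.101, and -2.81 with 0.0175 without these mice). Areg, the growth factor amphiregulin, had 1076, 1265 and 614 against 223, 437, 71.5, 425 and 383 (adjusted p = 0.105, and 0.0726). Tnfsf11, the ligand of Rank, was low in all libraries, at 17.3, 30.9 and 0 against 0, 19.99, 5.29, 3.20 and 13.4, and its direction turned from -0.47 to 0.57 without mice 494 and 557.

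Of 30 progenitor and alveolar genes tested, 1 rose and 1 fell with all libraries, 6.67% called against 2.2% of all genes (median log2 difference 0.77). Without mice 494 and 557, 13 rose and 1 fell (median 0.87). That was 46.7% called against 12.8% of all genes, with 6.03% of all genes called higher. Fcgbp, a mucin-like secreted protein, was at 195, 138 and 120 against 242, 596, 502, 630 and 591 and rose 3.39-fold (adjusted p = 0.0371). Elf5, the transcription factor that drives alveolar fate, was at 119, 93.3 and 56.7 against 148, 225, 345, 160 and 290 (log2 difference 1.36, adjusted p = 0.0726, and 1.71 with 0.0168 without these mice). Kit, the stem cell factor receptor of progenitors, was at 188, 140 and 94.9 against 198, 206, 247, 288 and 270 (0.81, adjusted p = 0.113, and 0.0783). In Fcgbp, Elf5 and Kit no parous value was as low as any virgin value, although mouse 494 was the nearest to the virgin mice in each. Ehf, an Ets factor of secretory epithelia, had 234, 419 and 258 against 244, 728, 894, 329 and 529 (adjusted p = 0.338, and 0.0299 without these mice). Irx1, a homeobox gene, was at 168, 241 and 192 against 761, 385, 382, 927 and 366 (1.39, adjusted p = 0.0728, and 0.93 with 0.0228), and here mice 494 and 557 were the highest. Tnfrsf11a, which encodes Rank, was at 18.6, 14.2 and 9.57 against 20.2, 50.4, 64.9, 12.8 and 49.3. Mice 494 and 557 were near the virgin level of Tnfrsf11a, and its difference was 1.24 with them (adjusted p = 0.203) and 1.92 without them (0.0147). Rspo1, a secreted Wnt agonist, was at 24.4, 75.0 and 2.21 against 10.1, 244, 352, 144 and 173 (adjusted p = 0.223, and 0.0429).

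Summed over the list, hormone-sensing genes were at 19935, 16482 and 20315 in virgin mice and at 13761, 4021, 1862, 7330 and 6687 in parous mice. All parous sums were below all virgin sums, and mouse 494 was the nearest to the virgin mice. Progenitor sums were 8724, 7985 and 6484 against 7720, 9726, 10711, 10686 and 10154, where mouse 494 lay within the virgin range and the other 4 above it.

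**Figure D3:**
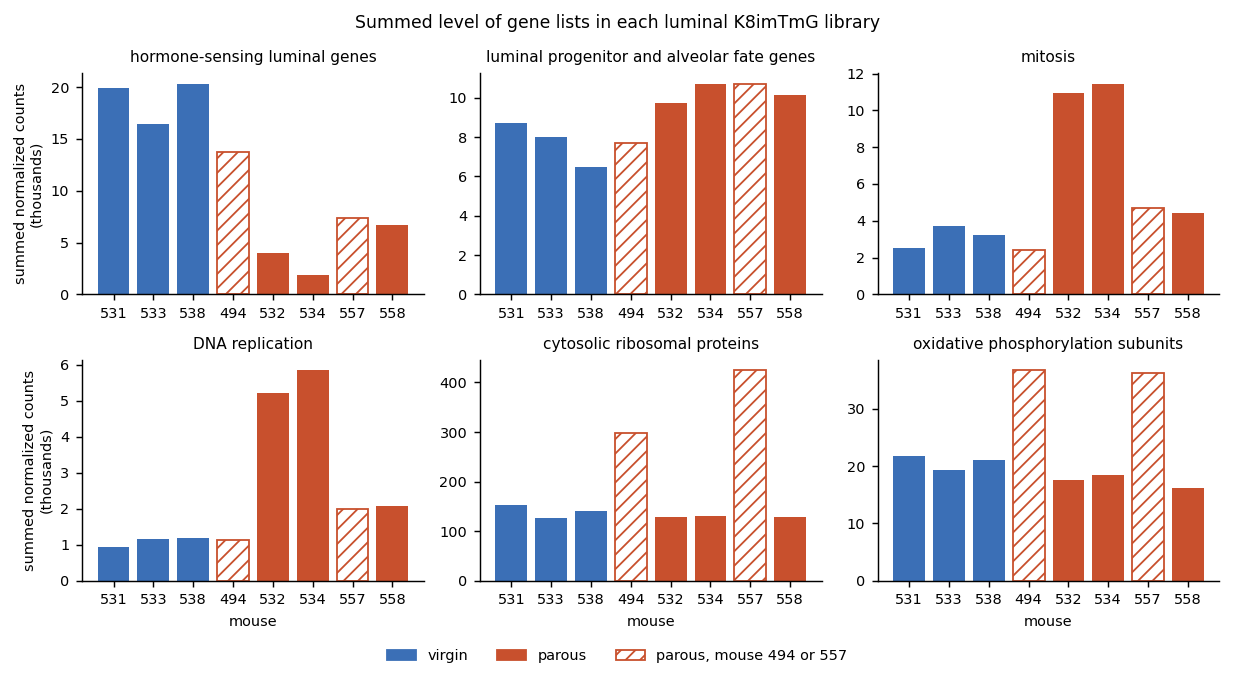
Summed normalized counts of 6 gene lists (the axis counts units of 1000) in each of the 8 luminal libraries, with virgin mice in blue, parous mice in red and the parous mice 494 and 557 hatched. Hormone-sensing sums are lower in all 5 parous mice, mitosis and DNA replication sums are highest in mice 532 and 534, and ribosomal and oxidative phosphorylation sums are highest in mice 494 and 557.

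Cell cycle genes were higher in parous cells mainly in mice 532 and 534. Mitosis genes summed to 2530, 3694 and 3234 in virgin mice and to 2428, 10946, 11445, 4717 and 4436 in parous mice, and DNA replication genes to 929, 1172 and 1196 against 1134, 5209, 5853, 1984 and 2063. Mouse 494 was below the virgin mice in mitosis genes and among them in replication genes, so the groups overlapped. Of 34 replication genes 1 rose and none fell, 2.94% called against 2.2% of all genes. The gene was Gins2, a subunit of the replicative helicase complex, which rose from 19.2, 17.8 and 5.89 to 42.0, 55.2, 62.2, 54.3 and 33.7 (log2 difference 1.84, SE 0.39, adjusted p = 0.0436). Its 3′ end overlaps Gse1 on the other strand. None of 42 mitosis genes passed in limma, while 20 were higher and 0 lower at an unadjusted p below 0.05, 0 were called by edgeR and 20 by DESeq2. Over all 10279 genes tested these counts were 1029 higher, 1201 lower, 277 by edgeR and 1060 by DESeq2. Medians were 1.32 for replication and 1.70 for mitosis. Without mice 494 and 557, 25 of 33 replication genes and 24 of 42 mitosis genes rose and none fell in either list, against 6.03% and 6.8% of all genes, with medians of 1.97 and 2.66. Mcm2 and Mcm3, subunits of the helicase, had log2 differences of 2.13 and 2.71 there (adjusted p = 0.0168 and 0.0170), against 1.38 and 1.58 with all 5 parous mice (0.210 and 0.316). Mki67, which marks dividing cells, was at 6.41, 62.9 and 25.02 against 8.40, 433, 407, 9.59 and 43.3. The pair 532 and 534 held nearly all of the excess in Mki67, and it did not pass in either fit (adjusted p = 0.579 and 0.0766). Top2a, the topoisomerase of dividing cells, had 19.2, 116 and 81.7 against 30.2, 700, 803, 89.5 and 126 (0.374 and 0.0574).

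Of 28 secreted defence genes tested 4 rose and none fell, against 1.06% and 1.14% of all genes. A positive log2 difference was seen in 26 of them (92.9%), against 49.6% of all genes, and the median was 1.08. Tnfaip2, a gene induced by tumour necrosis factor, was at 89.7, 138 and 99.4 in virgin mice and at 244, 331, 380, 537 and 293 in parous mice (3.28-fold, log2 difference 1.67, SE 0.28, adjusted p = 0.0278). Muc15, a membrane mucin also found on milk fat globules, was at 78.2, 78.6 and 32.4 against 166, 266, 452, 272 and 268 (4.52-fold, adjusted p = 0.0285). Pigr, which carries IgA into milk, was at 1.92, 1.57 and 4.42 against 25.2, 11.6, 7.94, 16.0 and 18.2 (5.98-fold, adjusted p = 0.0486), and Wfdc12 is given above with the milk genes. The groups were apart in all of these, with Pigr near the detection floor in virgin cells. For Wfdc12 the gap rests on few reads, at most 3 in each virgin library and in that of mouse 494. Lcn2, the iron-scavenging lipocalin, was at 382, 217 and 370 against 402, 508, 596, 562 and 973 (0.89, adjusted p = 0.146, and 1.08 with 0.0547 without mice 494 and 557), and Ltf, lactoferrin, at 190, 92.3 and 283 against 319, 354, 232, 578 and 584 (1.18, adjusted p = 0.143, and 1.08 with 0.147).

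Without mice 494 and 557, 11 of the 28 defence genes rose and 2 fell, against 6.03% and 6.8% of all genes. Those that rose included C3, the central complement component, with a log2 difference of 1.98 (adjusted p = 0.0179), Lbp, which binds bacterial lipopolysaccharide, with 1.94 (0.0148), and Nfkbiz, a regulator of NF-kappaB targets, with 1.98 (0.0119). Those that fell were Wfdc2, a protease inhibitor, and Reg3g, an antibacterial lectin, with -3.10 and -3.08 (adjusted p = 0.0308 and 0.0416). Tnf itself, the cytokine, was at 19.2, 29.9 and 21.3 in virgin mice and at 25.2, 126, 129, 41.5 and 132 in parous mice. Mice 494 and 557 were the nearest to the virgin mice in Tnf, and its log2 difference was 1.65 with them (adjusted p = 0.133) and 2.43 without them (0.0061).

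Of 30 matrix and basement membrane genes 2 rose and 4 fell, against 1.06% and 1.14% of all genes. Spp1, the matrix and milk protein osteopontin, was at 0.641, 0.524 and 19.1 in virgin mice and at 183, 104, 166, 163 and 160 in parous mice (log2 difference 5.38, SE 0.73, adjusted p = 0.0227). Tnc, the glycoprotein tenascin C, was at 4.49, 0.524 and 0 against 8.40, 55.2, 43.2, 54.3 and 37.6 (4.09, SE 0.71, adjusted p = 0.0285). Mouse 538 alone held nearly all virgin Spp1 reads, and mouse 494 stood between the groups in Tnc. Those that fell included Lamb2, a chain of laminin, Ntn4, a laminin-like netrin, and the proteoglycan gene Snorc. Snorc was at 186, 120 and 141 against 60.5, 21.6, 15.9, 41.5 and 25.1 (4.53-fold lower, adjusted p = 0.0285, and 7.15-fold without mice 494 and 557). Lamb2 fell from 109 ± 21.8 to 43.6 ± 6.78 and Ntn4 from 39.5 ± 14.3 to 8.95 ± 4.19 (SD, n = 3 and 5). Fn1, fibronectin, was low in all libraries and did not pass (0.63, adjusted p = 0.357). The list median was 0.26. Without mice 494 and 557, 5 rose and 6 fell, 36.7% called against 12.8% of all genes, with a median of 0.32.

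Of 45 actin and adhesion genes 1 rose, Cdc42ep3, and 3 fell, 8.89% called against 2.2% of all genes. Enah, which lengthens actin filaments, was at 596, 526 and 548 in virgin mice and at 286, 244, 211, 227 and 228 in parous mice (2.33-fold lower, log2 difference -1.22, SE 0.19, adjusted p = 0.0227). Itgav, an integrin that binds osteopontin and other matrix proteins, was at 176, 145 and 258 against 58.8, 69.6, 80.3, 73.5 and 84.8, and Dsp, the desmosomal protein desmoplakin, at 483, 556 and 664 against 270, 145, 55.6, 195 and 160. All parous values of the 3 genes were below all virgin values, with mouse 494 highest in Dsp. Vasp, a relative of Enah, did not pass (-0.57, adjusted p = 0.270, and -0.86 with 0.0453 without mice 494 and 557). The list median was -0.22, and without these mice 4 rose and 7 fell, 24.4% called against 12.8% of all genes (median -0.32). Of 9 keratins 1 fell, Krt19, at 1501, 1113 and 1006 against 564, 362, 330, 582 and 554 (2.52-fold lower, adjusted p = 0.0397). The share of keratins called was 11.1% against 2.2% of all genes, and their median was -1.03. Without these mice 5 fell, 55.6% called against 12.8% of all genes, and the median was -1.13. Krt8, whose promoter drives the Cre system of this model, was at 3134, 1768 and 2465 against 1596, 1077, 994, 1045 and 1211 (log2 difference -1.03, adjusted p = 0.0800, and -1.13 with 0.0233). Krt18, its partner, had -1.05 (adjusted p = 0.112, and -1.26 with 0.0293). The first keratins of the list, Krt10 and Krt14, had 0.70 and -0.47 (adjusted p = 0.574 and 0.519). Of 20 claudin and tight junction genes none passed in limma, with 2 higher and 3 lower at an unadjusted p below 0.05, 0 called by edgeR and 1 by DESeq2. Over all 10279 genes tested these counts were 1029 higher, 1201 lower, 277 by edgeR and 1060 by DESeq2. The median of the claudin and tight junction list was -0.14, and Cldn1 and Cldn3 had 0.71 and -0.09 (adjusted p = 0.544 and 0.839). Without these mice 1 rose and 2 fell, 15.0% called against 12.8% of all genes.

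In signalling lists few members passed. Of 31 Notch and Wnt genes 2 rose, 6.45% called against 2.2% of all genes. They were Fzd7 and Nrarp, a feedback inhibitor of Notch that Notch induces. Nrarp was at 30.1, 37.7 and 18.4 against 70.6, 86.4, 78.1, 115 and 79.6 (2.99-fold, adjusted p = 0.0285). Notch1 and Notch2 had log2 differences of 0.44 and 0.67 (adjusted p = 0.365 and 0.238). The list median was 0.60. Without mice 494 and 557, 9 of 28 rose and 2 fell, 39.3% called against 12.8% of all genes (median 0.35). Those that rose included Notch1 at 0.74 (adjusted p = 0.0404) and the Wnt effector Tcf7l2 at 1.20 (0.0152). Of 30 growth factor genes 1 rose, Csf1, the macrophage growth factor, at 10.3, 9.96 and 3.68 against 18.5, 37.2, 25.6, 41.5 and 31.6 (3.88-fold, adjusted p = 0.0447). This list had 3.33% called against 2.2% of all genes and a median of -0.19. Without these mice 4 rose and 4 fell, 26.7% called against 12.8% of all genes. Of 23 Tgf-beta genes 1 rose, Id2, an inhibitor of helix-loop-helix factors needed for alveolar growth, at 187, 299 and 292 against 417, 645, 702, 566 and 535 (2.21-fold, adjusted p = 0.0471). The Tgf-beta list had 4.35% called against 2.2% of all genes and a median of -0.07. Without these mice 4 rose and 1 fell, 22.7% called against 12.8% of all genes. Tgfb1 was low throughout and had -1.07 (adjusted p = 0.334), and Tgfb2 had 0.92 (0.263), with 1.51 (0.0147) without these mice.

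Glucocorticoid response genes held 3 that fell and none that rose among 21, 14.3% called against 2.2% of all genes. Sgk1, the kinase whose promoter is shown above, was at 381, 344 and 308 in virgin mice and at 220, 114, 87.8, 76.7 and 109 in parous mice (2.84-fold lower, log2 difference -1.59, SE 0.32, adjusted p = 0.0397). Zbtb16, a zinc finger gene induced by glucocorticoids, was at 45.5, 120 and 59.6 against 15.1, 15.2, 10.6, 16.0 and 29.0 (4.36-fold lower, 0.0371), and Ddit4, an inhibitor of mTORC1, at 179, 156 and 122 against 63.8, 52.0, 71.9, 73.5 and 83.1 (2.21-fold lower, 0.0397). The groups were apart in all 3. Yet the list median was 0.49, the other way from its called members, and Tsc22d3, another induced gene, had 0.49 (adjusted p = 0.475). Without mice 494 and 557, 1 rose and 5 fell, 28.6% called against 12.8% of all genes, with a median of 0.36. Of 38 immediate early genes 1 rose, Ier2, at 210, 153 and 141 against 428, 330, 351, 313 and 571, and 1 fell, Gadd45g, a growth arrest gene, at 700, 624 and 932 against 279, 94.4, 40.6, 153 and 194 (4.94-fold lower). Both had an adjusted p of 0.0415. The immediate early list had 5.26% called against 2.2% of all genes and a median of 0.05. Without these mice 1 rose and 2 fell, 8.11% called against 12.8% of all genes. Fos and Fosb had log2 differences of 0.03 and 0.19 (adjusted p = 0.955 and 0.744).

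Solute carriers numbered 152, of which 5 rose and 2 fell (median -0.03), 4.61% called against 2.2% of all genes. Slc12a2, the cotransporter of sodium, potassium and chloride, was at 5706, 6278 and 9303 in virgin mice and at 2154, 434, 289, 1409 and 1505 in parous mice. It was 6.13-fold lower (log2 difference -2.95, SE 0.63, adjusted p = 0.0447) and 9.56-fold lower without mice 494 and 557, and mice 532 and 534 were lowest. Slc25a33, a mitochondrial pyrimidine carrier, fell 3.36-fold (adjusted p = 0.0363). Those that rose included the zinc and iron importer Slc39a14, at 30.8, 12.6 and 12.5 against 48.7, 56.8, 71.0, 44.7 and 58.4 (3.00-fold, 0.0397), the sulfate transporter Slc26a2, at 85.9, 98.0 and 89.8 against 138, 168, 182, 182 and 198 (1.90-fold, 0.0447), and the amino acid transporter Slc43a2 (2.56-fold, 0.0453). The first tested carrier of the list, Slc10a3, had 0.74 (adjusted p = 0.438), and 0.24 (0.751) without mice 494 and 557. Without mice 494 and 557, 11 of 148 rose and 16 fell, 18.2% called against 12.8% of all genes, with a median of -0.12.

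In the remaining lists 1 gene passed with all libraries. Over all 10279 genes tested, 1029 were higher and 1201 lower at an unadjusted p below 0.05, 277 were called by edgeR and 1060 by DESeq2. Of 36 glutathione and antioxidant genes 1 fell, Ggt1, and none rose, 2.78% called against 2.2% of all genes (median -0.16). Without mice 494 and 557, 1 rose and 7 fell, 22.9% called against 12.8% of all genes. None of 42 interferon genes passed in limma, with 2 higher and 6 lower at an unadjusted p below 0.05, 0 called by edgeR and 4 by DESeq2 (median 0.08), and Stat2, one of their activators, had -1.25 (adjusted p = 0.194). Without these mice 1 rose and 2 fell, 7.32% called against 12.8% of all genes. None of 5 MHC class II genes passed, with 1 higher and 1 lower unadjusted and 0 called by edgeR or DESeq2 (median -0.63). Without these mice 3 fell, H2-DMa, H2-DMb1 and Lgmn, 60.0% called against 12.8% of all genes. None of 45 secretory pathway and unfolded protein response genes passed, with 0 higher and 2 lower unadjusted and 0 called by edgeR or DESeq2 (median -0.02). Without these mice 1 fell, 2.22% called against 12.8% of all genes. Xbp1 and Atf4, factors of that response, had 0.34 and -0.26 (adjusted p = 0.672 and 0.550). None of the 82 ribosomal genes passed, with 2 higher and 1 lower unadjusted and 0 called by either count tool, and their median was 0.47 with all parous mice and -0.07 without mice 494 and 557. None of the 76 oxidative phosphorylation genes passed, with 1 higher and 2 lower unadjusted and 0 called by either count tool. Their median was 0.09, and -0.18 without these mice, where 1 fell (1.32% called against 12.8% of all genes). Rpl10 and Rpl10a had 1.23 and -0.02 (adjusted p = 0.391 and 0.974), and 0.41 and -0.40 without these mice (0.742 and 0.253), and Atp5a1 and Atp5b 0.18 and 0.04 (0.678 and 0.940).

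**Figure D4:**
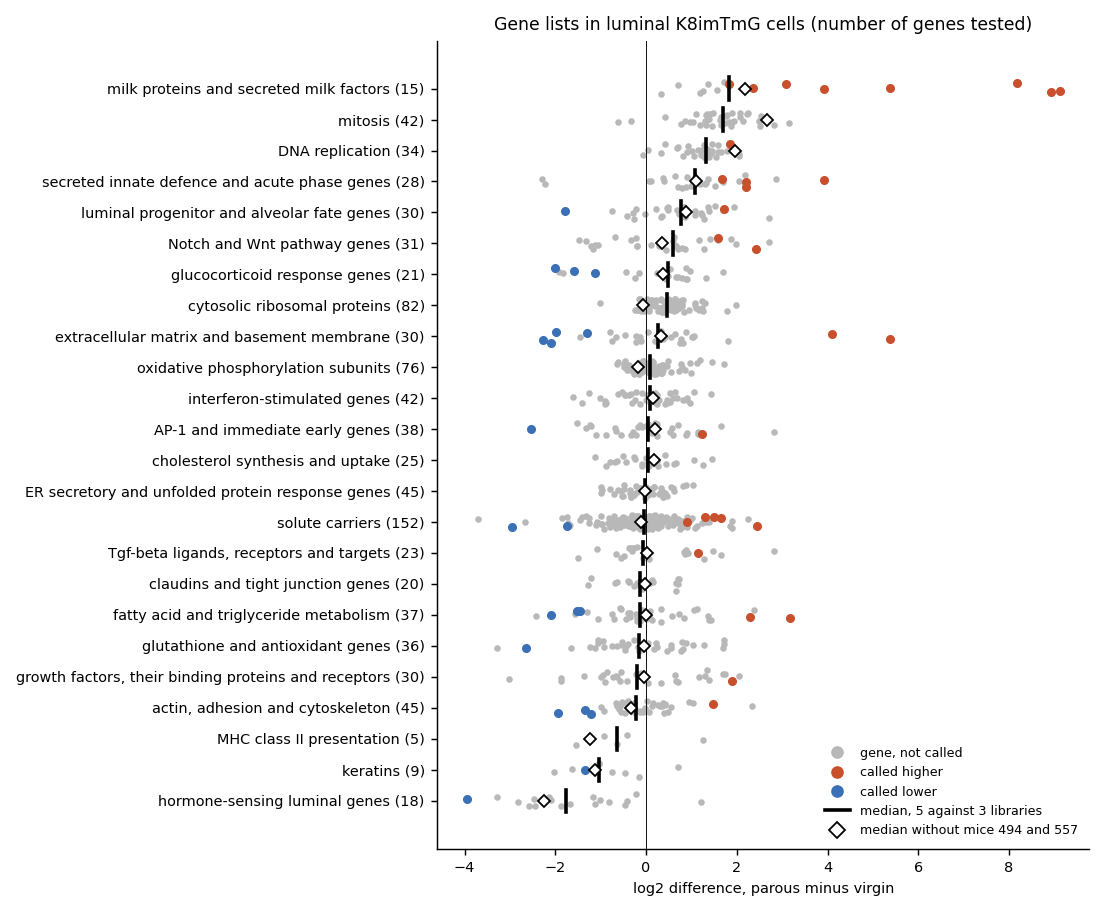
Log2 difference between parous and virgin luminal cells for each tested gene of 24 lists, with the number tested in brackets, called genes coloured, a bar at the median of all 8 libraries and a diamond at the median without mice 494 and 557. Milk, mitosis and DNA replication genes have the highest medians (1.82, 1.70 and 1.32) and hormone-sensing genes the lowest (-1.77), and the diamond lies beyond the bar in all 4.

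Among genes in none of these lists, those with the lowest p without mice 494 and 557 included Foxs1, a forkhead factor, at 10.9, 11.5 and 11.8 in virgin mice and at 111, 101 and 64.0 in mice 532, 534 and 558 (log2 difference 2.87, adjusted p = 0.0061). Mouse 557 was at 63.9, with the other parous mice, and mouse 494 at 10.1, with the virgin ones. Ogfrl1, a relative of the opioid growth factor receptor, was at 106, 169 and 106 against 220, 881, 970, 409 and 594 and was called in both fits (adjusted p = 0.0453, and 0.00852). S100a14, a calcium-binding protein of epithelia, fell from 83.4 ± 17.9 to 17.8 ± 10.2, and Dkkl1, a relative of the Dickkopf Wnt inhibitors, from 361 ± 124 to 69.7 ± 41.3 (SD, n = 3 and 5), both in both fits. S100a14 was 4.70-fold lower and 7.95-fold lower without mice 494 and 557, and Dkkl1 5.18-fold and 8.35-fold. The cornified envelope gene Sprr1a was at 71.1, 177 and 397 against 53.8, 0.400, 0, 9.59 and 4.33, the surface protein gene Ly6d at 2117, 1492 and 1490 against 1159, 95.6, 105, 396 and 308, and Dst, which links filaments to hemidesmosomes, at 424, 375 and 524 against 309, 153, 118, 272 and 135. In these 3 genes mouse 494 was the nearest to the virgin mice, and they passed without mice 494 and 557 (adjusted p = 0.0105, 0.0117 and 0.0105) but not with them (0.0590, 0.0823 and 0.0830).

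The parity difference was then compared with that in basal cells of the same model, the outer, contractile layer, sorted from 3 virgin and 4 parous mice of which 6 also gave a luminal library. It differed between the lineages for 14 of 10986 genes tested (0.127%), 10 with a higher difference in luminal cells (0.091%) and 4 with a lower one (0.0364%), in a limma interaction test. All 7 basal libraries had Clec2d at 72.8 to 199.1 and 340445 to 1365008 reads, so this feature of the luminal libraries of mice 494 and 557 was shared by all basal ones. Its part in the result was not tested. Spp1 was at 35.9, 70.3 and 21.7 in virgin basal cells of mice 531, 538 and 568 and at 12.6, 16.0, 27.9 and 7.96 in parous basal cells of mice 532, 534, 557 and 558, a difference between lineages of 6.70 on the log2 scale (SE 0.96, adjusted p = 0.0136). Ggt1 was at 44.5, 41.3 and 43.5 against 58.6, 72.2, 67.7 and 46.6 in basal cells (-3.13, SE 0.44, 0.0136), and Lpl at 81.9, 95.1 and 59.8 against 39.8, 21.4, 47.8 and 48.9 (4.20, SE 0.68, 0.0374). In all 3 genes the basal values did not move the way the luminal ones did. Fzd7 was high in basal cells of both stages, at 139 to 203, and its parous luminal level of 26.9 to 47.9 remained below the basal range (2.33, adjusted p = 0.0421). Among the others, Muc15, Cited2, Pik3r1, Tnc, Csn1s2a and Itgb8, which encodes an integrin that activates latent Tgf-beta, had a higher luminal difference, and Gnai2, a G protein subunit, Pdlim4, an actin-binding protein, and Aldoa, the glycolytic aldolase, a lower one. Csn1s2a was also read in parous basal libraries, at 39.8, 40.1, 7.96 and 9.10, against none in virgin basal ones. The 7 luminal markers summed to 1299 to 2397 in the basal libraries, against 5435 to 8950 in the parous luminal ones. Whether these Csn1s2a reads came from basal cells or from luminal RNA in the basal libraries was not tested.

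With the mouse as a block, 28 genes were called for the difference between lineages, 15 higher and 13 lower, and all 14 were among them (adjusted p from 0.00357 to 0.0187). Without the luminal libraries of mice 494 and 557 there were 78, again with all 14. The count was 31 without luminal mouse 494, 5 without 534, 3 without 557, 4 without virgin mouse 531 or 533, and 2 without 532, 558 or 538. Spp1 and Ggt1 were called in all 8 of these fits, and no other gene in more than 3.

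**Figure D5:**
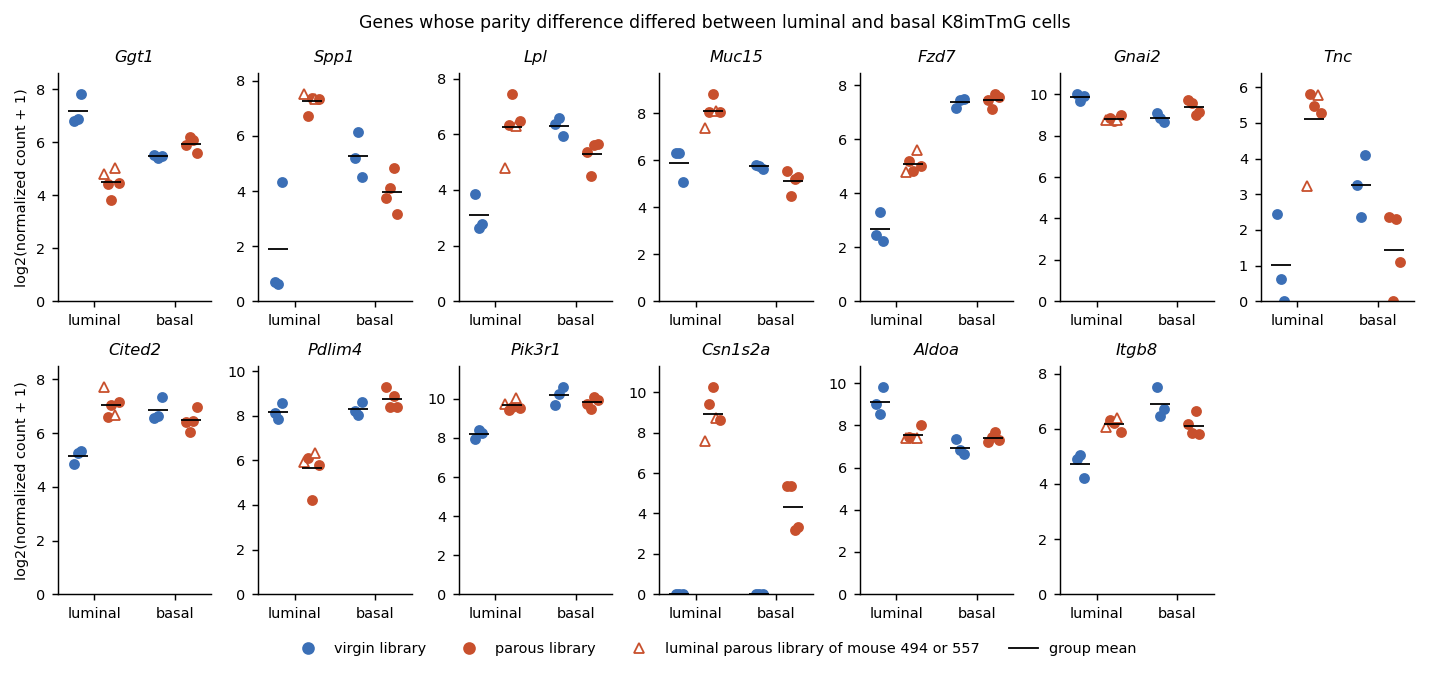
Log2(normalized count + 1) of 13 of the 14 genes whose parity difference differed between lineages, in each luminal and basal library, with virgin mice in blue, parous mice in red, open triangles for the luminal libraries of mice 494 and 557 and a line at the group mean. Ggt1 is lower and Spp1 and Lpl higher in parous luminal cells, while in basal cells the parous values of these genes lie on the other side of the virgin mean.

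Markers of other cell types were compared between the luminal groups, since they can move with parity. Luminal markers summed to 9967 to 13757 in virgin and 5435 to 8950 in parous libraries (5435 to 6954 without mice 494 and 557). With all libraries 1 of 7 fell, Krt19, against 1.14% of all genes called lower. Without mice 494 and 557, 5 of 7 fell, against 6.8% of all genes. Basal markers summed to 83.3 to 114 against 79.9 to 142. The 8 fibroblast markers summed to 247 to 961 against 103 to 321 (103 to 186 without these mice), most of it Dcn, and 8 of 10 endothelial and pericyte markers were listed, with 47.1 to 84.4 against 13.2 to 60.5. The parous endothelial sums without mice 494 and 557 were 13.2 to 22.9, all below the virgin ones, and 1 of these markers fell, Egfl7. Of 7 adipocyte markers 1 was listed, Fabp4, with 9.57 to 43.5 against 4.40 to 25.6 (4.40 to 21.6 without these mice), and 3 of 5 red cell markers were listed, with 2.21 to 16.7 against 3.20 to 75.6 (3.89 to 27.6). The part of these sums in the results above was not tested.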

How the data were processed

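The deposited table held 30 libraries and 11137 genes as a signal per gene, normalized read counts that the authors made from QuantSeq 3′ reads. Per the labels and the study's methods, reads were trimmed, aligned with Bowtie2 to GRCm39, reduced to unique molecules with UMI-tools, counted per gene and divided by DESeq2 size factors, and FastQC 0.11.9 was among the tools. RNA integrity averaged 6.9 (2.5 to 8.6) and was not given per library. The study's methods start doxycycline at week 4 for 4 weeks, which differs from the ages in the labels. Low values were whole multiples of 1 read in 100% of values, within 0.1 of a read, so read counts were recovered. A read was worth 0.400 to 3.20 in the 8 libraries, which sets the precision of low values. All per-sample columns were mapped (0 not used), and the 15 libraries of Rank-deleted mice entered no comparison, save the luminal ones in an alternative fit of all luminal libraries.

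The main test was limma 3.58.1 in R 4.3.3 (empirical Bayes with trend) on log2(normalized count + 1), a scale that understates the change of low genes, for genes that exceeded 10 in 25% or more of the libraries in the fit. P values were adjusted over all these genes by Benjamini and Hochberg. A gene was called at an adjusted p below 0.05. edgeR 4.0.16 and DESeq2 1.42.0 on recovered reads, other pseudocounts, filters and scalings, sample weights and leaving out each mouse were alternatives, and the code was tested on simulated data. Folds are ratios of group means, and libraries of one group with under 3 reads each were set to 3. The genes named were up to 10 per direction with the lowest adjusted p outside the milk list, among called genes whose groups did not overlap. Further ones were up to 3 per direction and the first 2 of each list, and up to 5 per direction more without mice 494 and 557. Up to 3 per direction for the lineage interaction, and genes the study names, completed them. H2-DMa, H2-DMb1, Lgmn, Prlr, Krt8, Krt18, Ehf, Lbp, C3, Nfkbiz, Wfdc2, Reg3g, Tcf7l2 and Ntn4 and the interaction genes past the first 3 were added after their values were seen. The lists and the comparison itself were chosen with earlier results of these data known. Some genes that these rules name are not reported here. Lists are described by counts and medians, with no set test. Replicate pairs of a group differed by more than sampling noise (chi-square per degree of freedom of at least 4.90).

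Basal and luminal libraries of a mouse are paired by animal, and their deviations from the group means correlated at 0.0835 to 0.272 (consensus 0.196). Python 3.11.15 made the tables. Gene coordinates are from the GENCODE annotation of GRCm39, which held 275 of 277 genes looked up.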

Additional observations from a re-analysis of the deposited data

Results flagged for a closer look

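In 12 of 159 sets of 4 or 5 values, 1 library stood far from the others of its group, by Dixon's test, which chance does in about 1 in 20 sets. Mouse 494 was far from the other parous luminal libraries in Trf, at 994.6 with the nearest at 1846, in Sgk1, at 220.1 with the nearest at 113.6, in Sprr1a, at 53.76 with the nearest at 9.586, in Ly6d, at 1159 with the nearest at 396.2, in Reg3g, at 77.28, and in Krt14, at 18.48. Mouse 557 was far from them in Ntng1, at 396.2, in Fads2, at 738.2, in Fn1, at 38.35, and in Slc10a3, at 67.10. Mouse 532 was low in Spp1, at 103.6 with the nearest at 160.1, and mouse 558 high in Aldoa, at 256.6 with the nearest at 174.4. In Trf and Sgk1 mouse 494 lay on the virgin side of the parous libraries, and in Ntng1 and Fads2 mouse 557 lay on the far side.

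The parity difference differed between luminal and basal cells, by the interaction test, in 14 genes, of which 13 are given here. As luminal minus basal log2 difference it was 6.70 in Spp1, 5.89 in Tnc, 4.62 in Csn1s2a, 4.20 in Lpl, 2.80 in Muc15, 2.33 in Fzd7, 2.29 in Cited2, 2.22 in Itgb8 and 1.82 in Pik3r1. It was -3.13 in Ggt1, -2.97 in Pdlim4, -2.07 in Aldoa and -1.55 in Gnai2.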

How the results depend on the processing

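The 226 calls became 211 and 242 with pseudocounts of 0.5 and 4, 197 with a mean of at least 50, 222 after quantile normalization and 277 in edgeR, all within 1.5 times. They became 106 with no filter, 3993 with array quality weights, whose estimation did not converge, 794 in a fit of all luminal libraries, 1060 in DESeq2 and 1285 without mice 494 and 557, and 3 to 732 with 1 mouse left out. The 1285 became 723 with a mean of at least 50, 6534 with array weights, and 13 to 1378 with 1 more mouse left out, with 13 without mouse 532, 58 without 534, 815 without 531 and 470 without 533. The 14 genes that differed between lineages became 3 with a pseudocount of 0.5, 7 in edgeR, 179 with array weights, 78 without the luminal libraries of mice 494 and 557 and 2 to 31 with 1 luminal mouse left out. With the mouse as replicate block they became 28, and both results within luminal cells have no pairs. Of 66 called genes named in the text, 66 were also called in edgeR, in DESeq2 and without mice 494 and 557, 42 with no filter, and 3 without mouse 532 or virgin mouse 533, and 0 reversed in any setting.

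Genes that reversed were not called. Fasn turned from -0.01 to 0.12 after quantile normalization, 0.47 with array weights, 0.39 in edgeR, 0.36 in DESeq2 and 0.79 without mice 494 and 557, with -0.32 to 0.37 over single mice left out. Tnfsf11 turned from -0.47 to 0.57 without these mice (-2.003 to 0.50). Quantile normalization turned Fos from 0.03 to -0.035 (-0.18 to 0.28) and Cldn3 from -0.09 to 0.026 (-0.26 to 0.14). Array weights turned Cldn3 to 0.021, Cldn1 to -0.054 (-0.091 to 1.121) and Atf4 to 0.053. Rpl10a turned to 0.053 in edgeR and 0.045 in DESeq2 (-0.18 to 0.18), and Atp5b to -0.0038 in DESeq2 (-0.22 to 0.31). Only leaving out single mice turned Fosb (-0.11 to 0.45), Xbp1 (-0.25 to 0.86) and Atp5a1 (-0.013 to 0.32). The cause was not tested in any of these. Depth limits genes at a few normalized counts, since 1 read was worth 3.20 in the library of mouse 557 and 0.400 in that of mouse 532.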
